A study of Mus musculus with 36 samples.

Results

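The 10 genes described here encode ligands and receptors that steer the axons of olfactory and vomeronasal sensory neurons, and they were taken by name from 24639 genes that had a symbol in all 36 tables. They are the receptors Nrp1, Nrp2, Plxna1, Robo1 and Robo2 and the secreted ligands Sema3a, Sema3f, Slit1, Slit2 and Slit3. RNA-seq was performed on the main olfactory epithelium (MOE), the vomeronasal organ (VNO) and the olfactory bulb (OB) of adult C57BL/6 mice, to ask how sex and the company of the other sex relate to gene expression. In each tissue there were 4 groups of 3 libraries, and their names join the housing, sex-separated (S) or sex-combined (C), with the sex, female (F) or male (M), which gives SF, SM, CF and CM. All mice were weaned at 3 weeks, kept 4 to a cage with their own sex alone or with both sexes, and killed at an age of 6 months. Each library was made from ribosome-depleted total RNA pooled from several mice, so a replicate is a pool (2 mice by the deposited design text, while the paper's methods give another number), and p-values measure the spread between such pools. All 3 tissues were taken from each mouse, so libraries compared between tissues share mice, which the fit without a block treats as separate. The labels name no transgene or mutant allele. The tissues were whole dissections that hold epithelial, vascular and connective cells beside neurons, and fewer cells of a type cannot be told apart from less RNA per cell.

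Class 3 semaphorins are secreted and bind neuropilins, which signal through plexin A co-receptors and mostly repel the growth cone. Slit proteins are large secreted ligands of the Robo receptors and repel axons as well. In the olfactory system, sensory neurons lie in the MOE and VNO and send their axons to the main and accessory bulb. Neuropilins and Robo receptors sort these axons along the axes of the bulb, and Sema3a and Sema3f are ligands with preference for Nrp1 and Nrp2, respectively.

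Values are FPKM, the fragments counted for a transcript, divided by its length and by the depth of the library, and summed over the transcripts listed for a gene. All 10 genes passed the filter of a mean FPKM of at least 0.5 in every tissue. Each was above 0 in all 36 libraries. The lowest estimate behind any value in the MOE was 36 fragments, for Slit3.

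The tissue labels were checked with marker genes. Omp, a protein of mature olfactory sensory neurons, was 638 to 1130 FPKM in the MOE, 80.6 to 116 FPKM in the VNO and 27.6 to 42.7 FPKM in the OB. The summed level of 5 vomeronasal neuron markers was 124 to 156 FPKM in the VNO against 15.7 to 21.7 in the MOE and 34.1 to 42.2 in the OB. Of this list, Gnao1 had a higher median in the OB (11.3 FPKM) than in the VNO (4.70 FPKM). The sum of 7 bulb neuron markers was 416 to 522 FPKM in the OB against 30.4 to 53.6 in the MOE and 155 to 207 in the VNO. In the VNO, the bulb markers Tbx21, Eomes, Cdhr1, Slc17a7 and Gad1 had medians of at most 3.79 FPKM. Most of the VNO sum thus lay in the remaining bulb markers, Th and Calb2. The sum of 4 immature olfactory neuron markers was also highest in the OB, at 55.9 to 74.4 FPKM against 26.4 to 48.0 in the MOE and 18.3 to 27.2 in the VNO. These markers were split. Gap43 and Dbn1 had their highest median in the OB (34.1 and 16.1 FPKM). Stmn2 had it in the MOE (15.9 FPKM, 12.2 in the OB), and Gng8 in the VNO (8.03 FPKM, 0.189 in the OB). Fragments mapped to the listed transcripts were estimated at 3017000 to 6780000 per library. By this estimate library CM3 of the MOE stood lowest at 3017000, where the next MOE library had 4153000. The paper lists more input pairs for CM3 than for any other MOE sample. It also gives CM3 the lowest shares of aligned reads and of concordant pairs of all samples. CM3 had the lowest MOE value of 7 of the 10 guidance genes and the lowest MOE sum of all 11 marker lists.

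**Figure D1:**
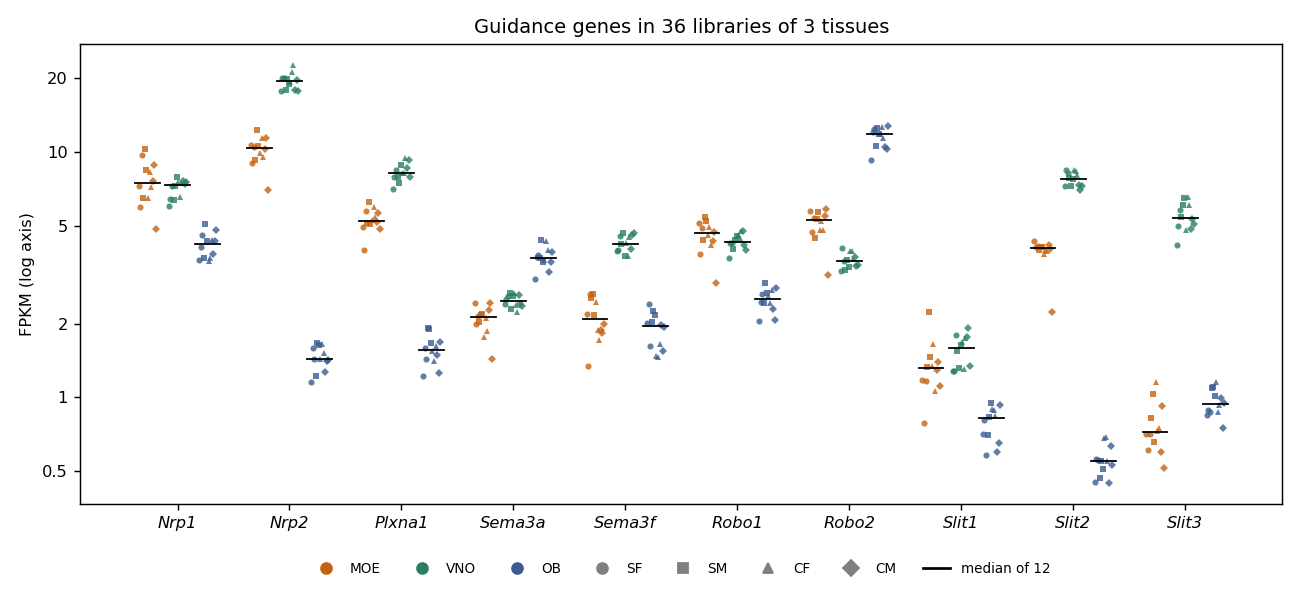
Expression of the 10 guidance genes in each of the 36 libraries, in FPKM on a log axis, coloured by tissue and shaped by group, with the median of 12 libraries as a line. Nrp2, Plxna1, Slit2 and Slit3 sit highest in the VNO, Robo2 and Sema3a sit highest in the OB, and the low MOE diamonds of Nrp1, Nrp2, Robo1, Robo2, Sema3a and Slit2 are library CM3.

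Among receptors, Nrp2 had the largest difference between a sensory tissue and the bulb. Nrp2, on chromosome 1 from 62749891 to 62865266 in the mm9 build used by the files, had 7.03, 10.4 and 12.3 FPKM (lowest, median and highest of 12 libraries) in the MOE. In the VNO its values were 17.8, 19.5 and 22.7 FPKM. In the OB they were 1.16, 1.44 and 1.67 FPKM. The 3 tissues did not overlap for Nrp2, with the VNO highest and the OB lowest. On the scale of log2(FPKM + 0.5), which understates the change of low genes, Nrp2 was higher in the VNO than in the OB by 3.35 (SE 0.065, limma with Benjamini-Hochberg adjustment over all genes, adjusted p = 2.7e-28, n = 12 and 12). The MOE exceeded the OB by 2.44 (adjusted p = 9.9e-25, limma) and lay below the VNO with a difference of -0.91 (adjusted p = 1.5e-13, limma).

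Nrp1, on chromosome 8 from 130882973 to 131029375, varied far less between tissues. It had 4.85, 7.46 and 10.3 FPKM in the MOE and 6.05, 7.35 and 7.96 FPKM in the VNO. Its OB values were 3.62, 4.23 and 5.09 FPKM. Those of the VNO lay above every OB library, whereas the MOE range reached into the OB range and enclosed that of the VNO. The log2 difference was 0.78 (SE 0.086, adjusted p = 1.5e-09, limma) for MOE against OB and 0.71 (adjusted p = 9.4e-09, limma) for VNO against OB. The MOE and VNO differed by 0.07, with a 95% interval from -0.11 to 0.25 and an adjusted p of 0.458 by limma, and this value turned to -0.18 when FPKM was scaled to the upper quartile and to -0.20 with quantile normalization.

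The balance of both neuropilins also differed between tissues. Nrp2 stood at 2.35 to 3.23 times the FPKM of Nrp1 in the VNO and at 1.07 to 1.53 times in the MOE. In the OB the ratio was 0.295 to 0.449, so that Nrp1 was the higher neuropilin in all 12 libraries. The 3 ranges did not overlap.

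Nrp2 was also listed with a pair of alternative 3′ ends, which lie 21601 bases apart. The transcripts with the earlier end made up 36.0, 44.0 and 55.5% (lowest, median and highest library) of Nrp2 FPKM in the VNO and 21.0, 27.9 and 33.3% in the MOE, without overlap. In the OB the share was 0 to 42.9%, on at most 34.6 estimated fragments per library, and 2 OB libraries were listed at 0. The split between overlapping transcripts is an estimate of the quantification program. The paper gives a lower RNA integrity for every VNO sample than for any MOE or OB sample, and its part in these shares was not tested.

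Plxna1, a plexin that pairs with neuropilins (chromosome 6, 89266308 to 89312607), followed the order of Nrp2. It had 3.99, 5.24 and 6.29 FPKM in the MOE. Its VNO values were 7.07, 8.23 and 9.46 FPKM and its OB values were 1.23, 1.57 and 1.93 FPKM. No tissue overlapped another. On the log2 scale the difference was 2.09 for VNO against OB (SE 0.056, adjusted p = 9.3e-25, limma), 1.49 for MOE against OB (adjusted p = 6.4e-21, limma) and -0.60 for MOE against VNO (adjusted p = 5.1e-11, limma). The other A plexins did not all share this order. For MOE against VNO, Plxna3 had a log2 difference of 1.87 and Plxna4 of 2.09, whereas Plxna2 had -0.20.

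The Robo receptors are neighbours on chromosome 16, Robo1 from 72663394 to 73046345 and Robo2 from 73892551 to 75093015, with 846 kb between them. Robo1 had 2.94, 4.67 and 5.47 FPKM in the MOE, 3.70, 4.32 and 4.79 FPKM in the VNO and 2.06, 2.52 and 2.92 FPKM in the OB. Every MOE and VNO library was above every OB library. Its log2 difference to the OB was 0.74 in the MOE (SE 0.064, adjusted p = 5.3e-12, limma) and 0.69 in the VNO (adjusted p = 3.3e-11, limma). Between MOE and VNO it was 0.06, with a 95% interval from -0.07 to 0.19 and an adjusted p of 0.399 by limma. That small value was -0.18 under upper quartile scaling and -0.094 under quantile normalization.

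Robo2 had the opposite order, with the OB highest. It had 9.33, 11.9 and 12.8 FPKM in the OB, 3.15, 5.31 and 5.87 FPKM in the MOE and 3.26, 3.62 and 4.06 FPKM in the VNO. Every OB library exceeded every library of the other tissues, and the MOE and VNO overlapped. Its log2 difference was -1.12 for MOE against OB (SE 0.071, adjusted p = 3.6e-15, limma) and -1.54 for VNO against OB (adjusted p = 1.1e-18, limma). Between MOE and VNO it was 0.42 (adjusted p = 3.6e-06, limma). The FPKM ratio of Robo2 to Robo1 was 4.19 to 5.22 in the OB, 0.979 to 1.26 in the MOE and 0.745 to 0.956 in the VNO.

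**Figure D2:**
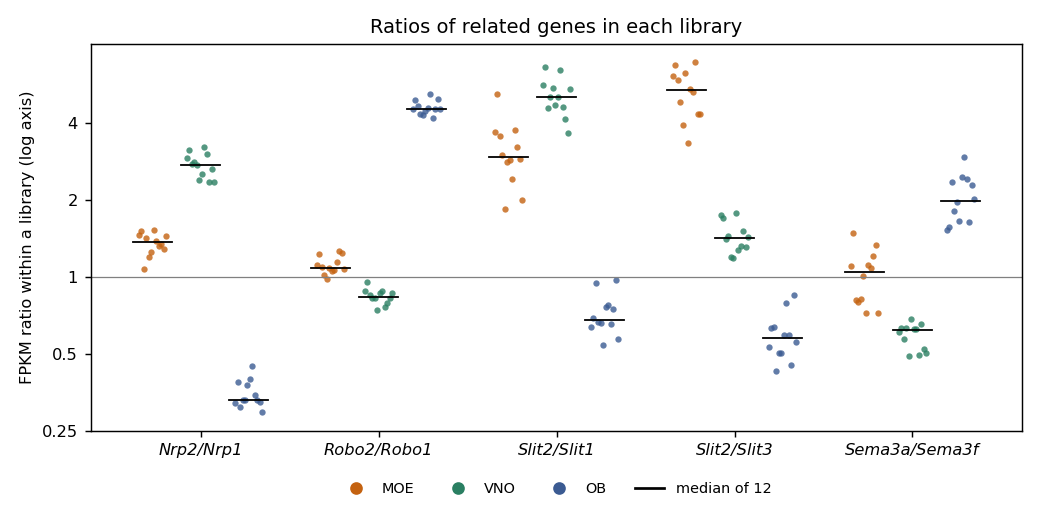
FPKM ratios of related genes within each library on a log axis, 12 libraries per tissue, with medians as lines and a ratio of 1 as the grey line. For Nrp2 over Nrp1 and for Slit2 over Slit1 or Slit3 every OB library is below 1 and every MOE and VNO library above it, and for Robo2 over Robo1 the OB libraries lie from 4.19 to 5.22.

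The Robo2 transcripts begin at different starts, and their estimated use differed between tissues. As for the Nrp2 ends, the split between these overlapping transcripts is an estimate of the quantification program. An upstream start, shared by 3 listed transcripts, lies 680945 bases before a downstream start shared by 2 transcripts. Upstream transcripts were listed at 0 in all 24 MOE and VNO libraries. In the OB they had 2.97, 4.47 and 5.64 FPKM, resting on 236 to 509 estimated fragments per library, and made up 31.8, 39.5 and 46.5% of Robo2. Downstream transcripts had 6.27, 7.01 and 8.39 FPKM in the OB, 3.15, 5.31 and 5.87 FPKM in the MOE and 3.26, 3.62 and 4.06 FPKM in the VNO. The OB was thus above the other tissues in every library also for the downstream transcripts alone. A further transcript, with its own start, was listed at 0 in all 36 libraries.

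The 250 bases before the upstream and the downstream start are shown because the tissues differ in their estimated use, with every CG in capitals. A further Robo2 promoter of this reference, chr16:75447294-75447543, was matched to neither of these starts and is not shown. They are RefSeq sequence in the GRCm38.p6 build, minus strand, and were matched to the mm9 transcripts by the equal distance of 680945 bases between the starts.
Robo2 upstream start, chr16:75092771-75093020: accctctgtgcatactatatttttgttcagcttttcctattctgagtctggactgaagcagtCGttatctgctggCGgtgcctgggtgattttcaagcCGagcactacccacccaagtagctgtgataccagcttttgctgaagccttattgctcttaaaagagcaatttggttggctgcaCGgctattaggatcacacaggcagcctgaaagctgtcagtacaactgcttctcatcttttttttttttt
Robo2 downstream start, chr16:74411826-74412075: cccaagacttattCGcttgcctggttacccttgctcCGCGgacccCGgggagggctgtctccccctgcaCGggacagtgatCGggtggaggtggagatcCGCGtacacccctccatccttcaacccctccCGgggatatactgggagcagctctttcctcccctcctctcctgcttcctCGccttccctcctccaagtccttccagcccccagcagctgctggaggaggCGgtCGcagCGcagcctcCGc
The upstream sequence holds 4 CG and has a GC content of 44.8%, whereas the downstream sequence holds 14 CG and has 65.6%. Of 32851 promoters of the same length in this reference, the median holds 6 CG and has 52.4% GC, 62.2% hold at least 4 CG and 29.4% hold at least 14. TATAAA was found on neither strand of either sequence, while 12.4% of all promoters hold it on 1 strand or the other. These counts describe the letters in the windows and no binding was measured.

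**Figure D3:**
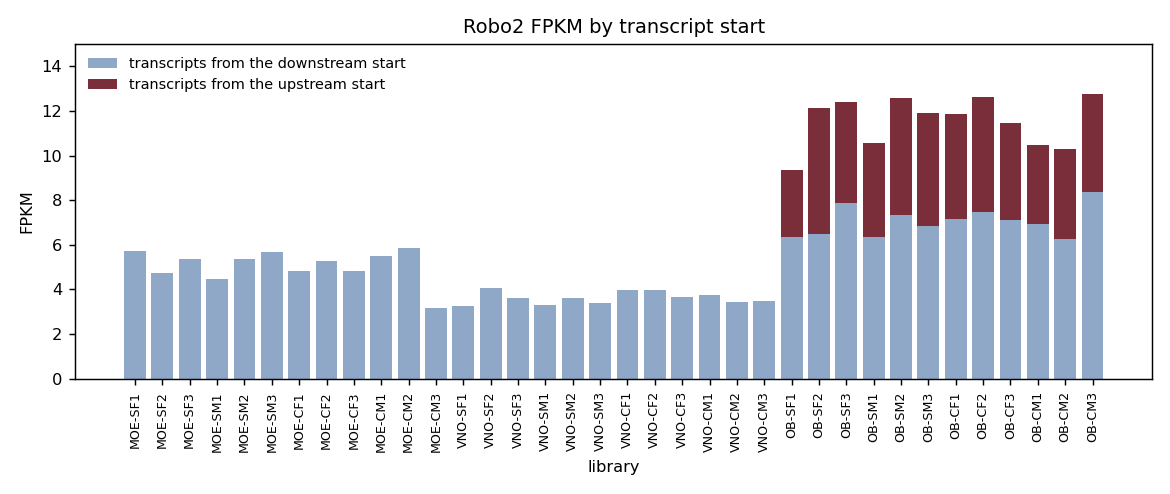
Robo2 FPKM in each of the 36 libraries, stacked by transcript start. The upper part of the bar, transcripts of the upstream start, is present in the 12 OB libraries at 2.97 to 5.64 FPKM and listed at 0 in the 24 MOE and VNO libraries.

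Among ligands, Sema3a was highest in the OB. It lies on chromosome 5 from 13396784 to 13603485 and had 3.05, 3.71 and 4.41 FPKM in the OB. It had 1.44, 2.13 and 2.44 FPKM in the MOE and 2.23, 2.47 and 2.66 FPKM in the VNO. Every OB library was above every MOE and VNO library, and MOE and VNO overlapped. Its log2 difference was -0.73 for MOE against OB (SE 0.058, adjusted p = 1.1e-12, limma), -0.51 for VNO against OB (adjusted p = 2.8e-09, limma) and -0.22 for MOE against VNO (adjusted p = 0.0011, limma).

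Sema3f, on chromosome 9 from 107583833 to 107612806, was highest in the VNO. It had 3.79, 4.24 and 4.69 FPKM there, 1.34, 2.08 and 2.64 FPKM in the MOE and 1.47, 1.96 and 2.40 FPKM in the OB. The VNO values lay above all others, and those of the MOE and OB overlapped. The log2 difference was 1.01 for VNO against OB (SE 0.069, adjusted p = 3.1e-14, limma) and -0.88 for MOE against VNO (adjusted p = 1.4e-12, limma). For MOE against OB it was 0.13, with a 95% interval from -0.01 to 0.27 and an adjusted p of 0.0849 by limma. Leaving out MOE library SF2 gave 0.18 (adjusted p = 0.0049, limma) and leaving out OB library SF2 gave 0.16 (adjusted p = 0.0397, limma). The ratio of Sema3a to Sema3f was 1.52 to 2.96 in the OB and 0.492 to 0.683 in the VNO, and it straddled 1 in the MOE, with 0.722 to 1.49.

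All 3 Slit ligands had their highest median in the VNO, and Slit3 alone had a lower median in the MOE than in the OB. Slit2 (chromosome 5, 48374394 to 48698974) had 7.03, 7.80 and 8.50 FPKM in the VNO and 2.22, 4.06 and 4.36 FPKM in the MOE. In the OB it had 0.448, 0.551 and 0.688 FPKM. No tissue overlapped another, and the mean FPKM in the VNO was 14.1 times that in the OB. On the log2 scale the difference was 2.98 for VNO against OB (SE 0.060, adjusted p = 6.6e-28, limma), 2.06 for MOE against OB (adjusted p = 9.0e-24, limma) and -0.92 for MOE against VNO (adjusted p = 1.8e-14, limma).

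Slit3 (chromosome 11, 34934958 to 35522009) was, of the 10 genes, the one that differed most between the sensory tissues. It had 4.17, 5.38 and 6.58 FPKM in the VNO, 0.514, 0.720 and 1.15 FPKM in the MOE and 0.747, 0.940 and 1.16 FPKM in the OB. All 12 VNO libraries were above all others, and the MOE and OB overlapped. By limma the log2 difference was -2.24 for MOE against VNO (SE 0.068, adjusted p = 8.0e-23, limma), 2.03 for VNO against OB (adjusted p = 2.7e-22, limma) and -0.21 for MOE against OB (adjusted p = 0.0057, limma). Slit2 was 3.34 to 6.97 times Slit3 in the MOE and 1.19 to 1.77 times in the VNO, while in the OB the ratio was 0.428 to 0.850.

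Markers of connective and vascular cells also stood highest in the VNO libraries. The summed level of 5 mesenchyme markers was 653 to 954 FPKM in the VNO, 191 to 346 in the MOE and 17.9 to 23.9 in the OB. For 4 smooth muscle markers it was 277 to 369, 43.9 to 87.1 and 2.88 to 7.17 FPKM, respectively. The sum of 5 endothelium markers was 11.6 to 14.9, 3.59 to 6.51 and 7.08 to 9.82 FPKM, and that of 4 cartilage and bone markers was 81.0 to 152, 34.8 to 62.8 and 1.03 to 2.74 FPKM. Their part in the tissue differences of Slit2, Slit3 and the other genes was not tested.

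Slit1 (chromosome 19, 41674747 to 41818346) was low in every tissue. It had 1.28, 1.60 and 1.91 FPKM in the VNO, 0.790, 1.31 and 2.23 FPKM in the MOE and 0.584, 0.821 and 0.947 FPKM in the OB. The VNO was above the OB in every library, and the MOE overlapped both. Its log2 difference was 0.68 for VNO against OB (SE 0.075, adjusted p = 1.7e-09, limma), 0.50 for MOE against OB (adjusted p = 5.2e-07, limma) and -0.18 for MOE against VNO (adjusted p = 0.0333, limma). The last of these lost its call when any 1 of 11 libraries was left out and with the replicate block (adjusted p = 0.057).

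**Figure D4:**
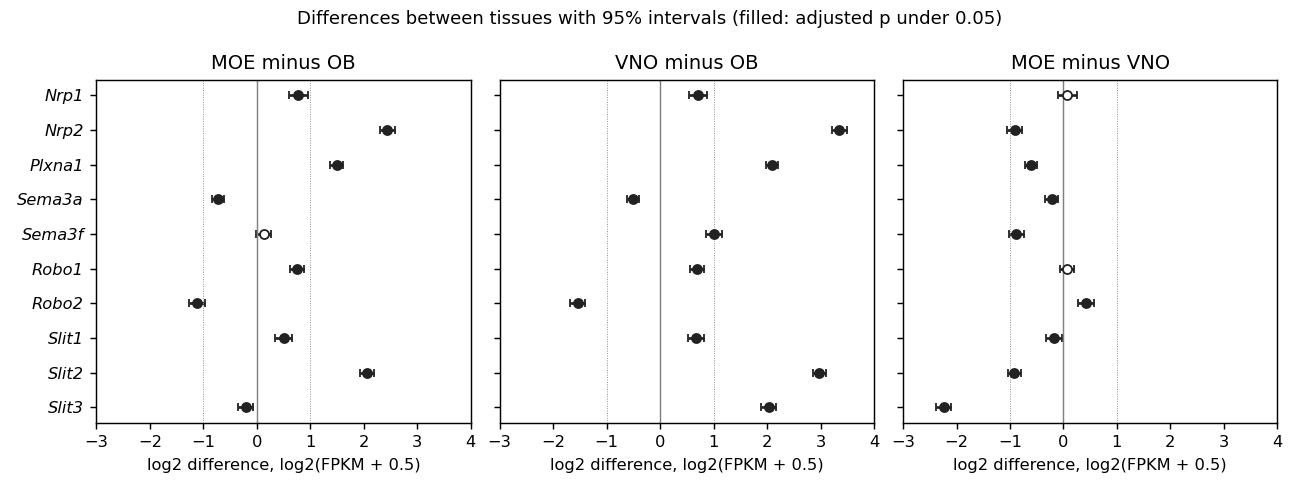
Differences between tissues on the log2(FPKM + 0.5) scale, 12 libraries per tissue, with 95% intervals, where filled points have an adjusted p under 0.05 and dotted lines mark a log2 difference of 1. Nrp2 and Slit2 lie farthest to the right for VNO minus OB, at 3.35 and 2.98, Robo2 and Sema3a lie left of 0 in both comparisons with the OB, and Slit3 lies at -2.24 for MOE minus VNO.

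Most genes differed between these tissues, so the counts of guidance genes are given beside those of all genes. For VNO against OB all 10 genes passed the threshold, 8 higher and 2 lower in the VNO, where 85.8% of the 14635 genes tested passed. For MOE against OB 9 of 10 passed, 6 higher and 3 lower in the MOE, beside 85% of all genes. For MOE against VNO 8 of 10 passed, 1 higher and 7 lower in the MOE, beside 82.6% of all genes. By direction, 37.8% of all genes were higher and 48% lower in the VNO than in the OB, 45.7% were higher and 39.3% lower in the MOE than in the OB, and 48.6% were higher and 33.9% lower in the MOE than in the VNO. The split of all genes depended on the scaling of FPKM. Among the genes called, those higher in the VNO than in the OB were 44% as deposited and 58.3% with upper quartile scaling, and those higher in the MOE than in the VNO were 58.9% and 45.9% (50.7% with quantile normalization). Of the guidance genes, 8 were higher and 2 lower in the VNO than in the OB under both scalings, and 1 was higher and 9 lower in the MOE than in the VNO with upper quartile scaling.

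A log2 difference of at least 1 beside the test was met by 6 genes for VNO against OB (39.2% of all genes), 4 for MOE against OB (38.4%) and 1 for MOE against VNO (21.6%). The last count was 3 with quantile normalization and 4 with upper quartile scaling. Libraries did not overlap for 10, 6 and 5 genes, beside 62.5%, 51.1% and 34.8% of all genes. The median log2 difference of the 10 genes was 0.86 for VNO against OB, where that of all genes was -0.12, and 0.62 for MOE against OB, where that of all genes was 0.07. For MOE against VNO it was -0.41, where that of all genes was 0.15.

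Within a tissue, the order of levels placed receptors before ligands only in part. In the MOE the median FPKM fell from Nrp2 to Nrp1, Robo2, Plxna1, Robo1, Slit2, Sema3a, Sema3f, Slit1 and Slit3, and every neighbouring pair overlapped in its range. In the VNO the order was Nrp2, Plxna1, Slit2, Nrp1, Slit3, Robo1, Sema3f, Robo2, Sema3a and Slit1, and Nrp2, Robo2 and Sema3a were each clear of the next gene. In the OB it was Robo2, Nrp1, Sema3a, Robo1, Sema3f, Plxna1, Nrp2, Slit3, Slit1 and Slit2, and Robo2, Sema3a and Nrp2 were each clear of the next.

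The genes are long, which they share beyond their role. Their spans in mm9 run from 29.0 kb for Sema3f to 1200 kb for Robo2, where the median gene has 14.5 kb. All except Sema3f and Plxna1 are longer than 91.3% of genes or more. Slit2 and Slit3 overlap the microRNA genes Mir218-1 and Mir218-2, Nrp1 overlaps Mir1903, Robo2 overlaps Mir691 and Nrp2 overlaps 4930487H11Rik.

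Sex and housing were compared next, which the study was built to address. None of the 10 genes passed an adjusted p of 0.05 by limma in any of 12 comparisons, which were SF against SM, CF against CM, the interaction of sex and housing, and sex-combined against sex-separated mice in each tissue. Few genes of any kind passed. In the order given, 0.0944, 0.0436, 0.0291 and 0.102% of all genes passed in the MOE, 0.0722, 0.0433, 0 and 0% in the VNO and 0.039, 0.0469, 0.00781 and 0.00781% in the OB. Of the 120 tests of guidance genes, 5 (4.17%) had an unadjusted p under 0.05. Of all genes, 4.17, 1.76, 4.61 and 3.3% did in the MOE, 8.82, 3.93, 5.29 and 7.6% in the VNO and 4.58, 5.68, 4.12 and 2.28% in the OB. Log2 differences, interactions included, ran from -0.54 to 0.23. The 95% intervals of the sex differences reached a median of 0.40 to either side in the MOE, 0.19 in the VNO and 0.26 in the OB.

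Slit1 in the MOE had 1.18, 0.790 and 1.17 FPKM in SF libraries and 1.33, 2.23 and 1.46 FPKM in SM libraries. The SF values were all below the SM values. The log2 difference was -0.48 (SE 0.191, unadjusted p = 0.0226 and adjusted p = 1.0, limma). The CF and CM libraries, at 1.06 to 1.65 and 1.11 to 1.39 FPKM, overlapped. In SF against SM of the MOE, 2 of the 10 genes did not overlap, beside 14.1% of all genes, and in CF against CM all 10 overlapped, where 4.14% of all genes did not.

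Plxna1 in the OB had 1.23, 1.59 and 1.44 FPKM in SF libraries and 1.93, 1.90 and 1.67 FPKM in SM libraries. The groups did not overlap, with SF lower. They differed by a log2 value of -0.29 (unadjusted p = 0.0235, adjusted p = 1.0, limma). In SF against SM of the OB, 2 of the 10 genes did not overlap, beside 8.58% of all genes, and in CF against CM 1 did not, beside 10.2%.

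Slit2 in the VNO had 8.50, 8.42 and 8.06 FPKM in CF libraries and 7.35, 7.03 and 7.31 FPKM in CM libraries. All CF values were above the CM values, and it was the only guidance gene without overlap in this comparison, beside 8.68% of all genes. The CF and CM libraries differed by a log2 value of 0.19 (unadjusted p = 0.0197, adjusted p = 1.0, limma). In SF and SM libraries Slit2 overlapped, with 7.25 to 8.50 and 7.29 to 7.84 FPKM. In SF against SM of the VNO all 10 overlapped, beside 14.6% of all genes without overlap.

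Slit3 in the VNO had the smallest p of the interactions. It was 4.17, 4.99 and 5.81 FPKM in SF and 5.42, 6.10 and 6.52 FPKM in SM libraries, and 4.80, 6.58 and 6.07 FPKM in CF and 4.84, 5.35 and 5.12 FPKM in CM libraries. Groups overlapped under both housings. After group means were removed, same-numbered SF and SM libraries of the VNO correlated weakly (r = 0.13, 0.158 and 0.234). The labels give no pairing of these pools, and SF and SM mice were kept apart. Within these 3 same-numbered pairs Slit3, Nrp1 and Robo1 were lower in SF each time, where 25.9% of all genes were. Library SF1 had the lowest VNO value of 6 of the 10 guidance genes, these 3 among them. It also had the fewest estimated fragments of the VNO, and the paper gives it the lowest share of concordant pairs there. With the pairs as a block on their 6 libraries, Slit3 had a log2 difference of -0.25 (SE 0.095, unadjusted p = 0.0326, adjusted p = 0.759, limma), and none of the 10 genes passed. The difference of the sex differences was -0.42 (unadjusted p = 0.0387, adjusted p = 0.894, limma).

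Sema3f in the OB was 1.47 to 1.97 FPKM in the 6 sex-combined libraries and 1.63 to 2.40 FPKM in the 6 sex-separated libraries, which overlapped. The log2 difference was -0.24 (unadjusted p = 0.0126, adjusted p = 1.0, limma). The share of upstream Robo2 transcripts in the OB was 38.3 ± 7.47% in SF, 41.3 ± 1.35% in SM, 39.6 ± 1.30% in CF and 35.8 ± 2.91% in CM libraries (SD, n = 3 each).

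**Figure D5:**
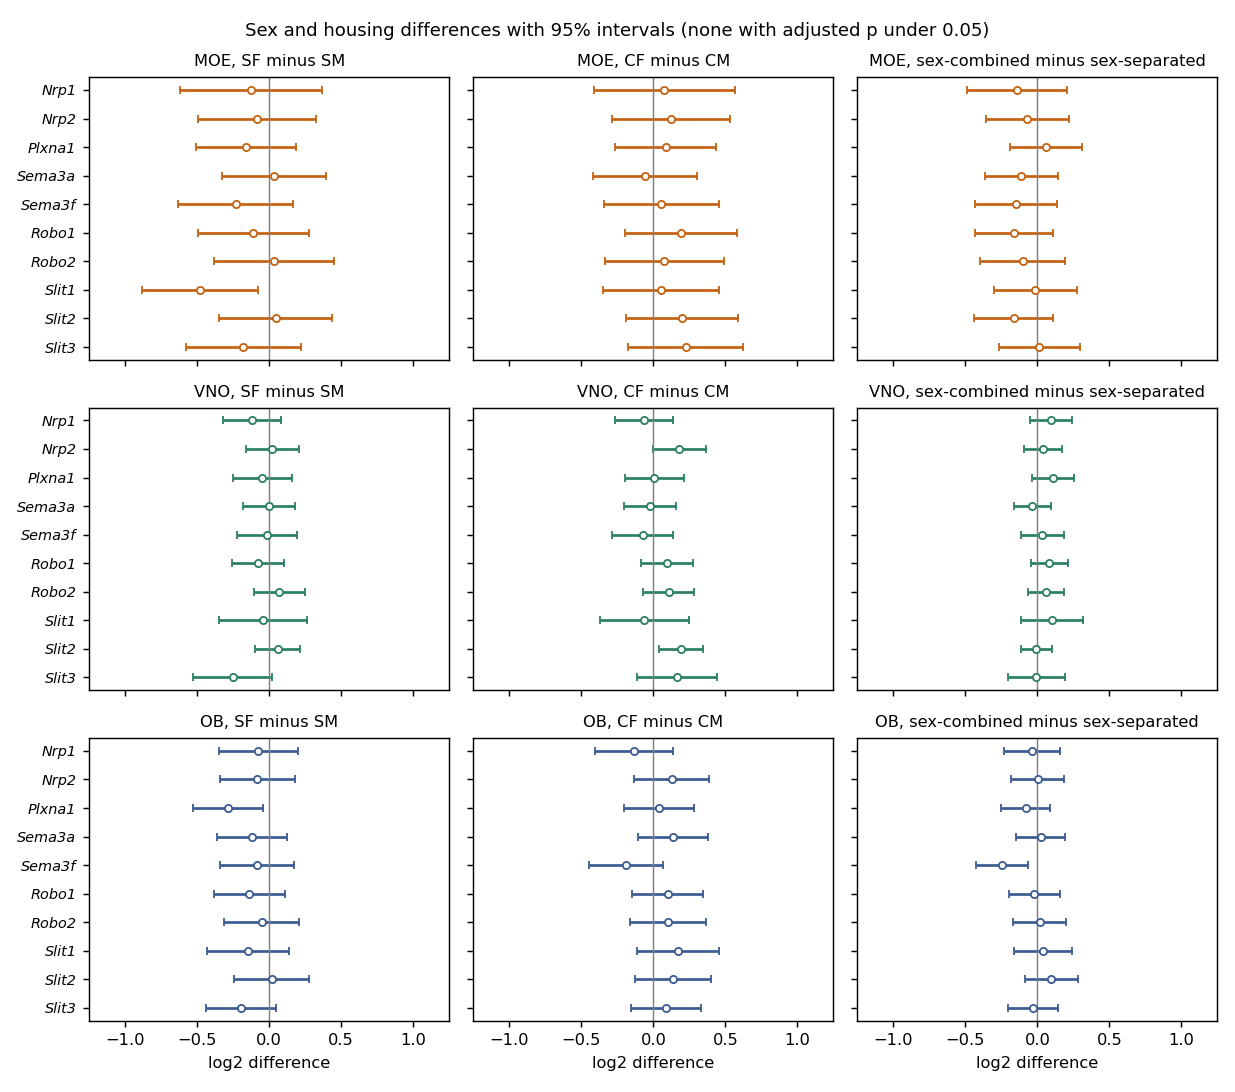
Log2 differences on the log2(FPKM + 0.5) scale with 95% intervals for sex under each housing (3 against 3 libraries) and for housing (6 against 6) in the 3 tissues. All points are open since no adjusted p was under 0.05, and intervals are widest in the MOE, where those of sex reach a median of 0.40 to either side.

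Other guidance families were counted on lists that were drawn up with earlier results known, beside the 85% (MOE against OB), 85.8% (VNO against OB) and 82.6% (MOE against VNO) of all genes that passed. All 13 other semaphorins and plexins passed for MOE against OB (8 higher, 5 lower) and for VNO against OB (5 higher, 8 lower), and 12 passed for MOE against VNO (4 higher, 8 lower). Of 18 ephrins and Eph receptors tested, the contact-dependent guidance system, 18, 17 and 15 passed. Of 8 netrin pathway genes 8, 8 and 7 passed, of 4 other Robo pathway genes 2, 4 and 3 passed, and of 13 olfactory axon sorting molecules 12, 11 and 12 passed. None of these genes passed in a sex or housing comparison.

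The largest differences in these lists were those of adhesion and Eph genes. Kirrel2, an adhesion molecule that sorts like olfactory axons, had a mean of 79.5 ± 22.9 FPKM in the MOE, 16.3 ± 3.12 in the VNO and 0.692 ± 0.155 in the OB (SD, n = 12 each), a log2 difference of 6.03 for MOE against OB. Cntn4, a contactin of olfactory axons, had 70.4 ± 12.2, 31.8 ± 2.64 and 4.19 ± 0.456 FPKM. Ncam2, an adhesion molecule of olfactory axons, was higher in the MOE than in the VNO by 2.58, and Plxna4 by 2.09. Efna3 was higher in the MOE than in the OB by 2.72, and B3gnt2, a glycosyltransferase that acts in olfactory axon guidance, higher in the VNO than in the OB by 2.52.

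On the other side, Epha6 had 11.97 ± 0.929 FPKM in the OB and 0.024 ± 0.025 in the MOE, and Nrcam 35.4 ± 2.86 FPKM in the OB, 2.27 ± 0.347 in the MOE and 1.08 ± 0.133 in the VNO. Efnb3 was lower in the MOE than in the OB (-3.27) and Pcdh10 lower in the VNO than in the OB (-4.03). Epha3, Epha2 and Plxnd1 were lower in the MOE than in the VNO, with -2.37, -1.62 and -1.39. These genes passed the limma test with groups that did not overlap, since the rule that named them asked for both.

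Residual levels, after the mean of each tissue and group had been removed, rose and fell together for some genes. Over the 36 libraries the Pearson r of the 45 pairs of guidance genes had a median of 0.49 and ran from -0.16 to 0.878 for Robo1 with Robo2. With FPKM scaled to the upper quartile, an alternative added after seeing the data, the median was 0.257. The r then ran from -0.616 for Slit2 with Sema3f to 0.675. The libraries share their scale, and these values are given as a description. The genes most alike by this measure, as deposited, were Camsap2 (r = 0.956) and Nedd4 (0.955) for Robo2, Ckap5 (0.94) and Rnf20 (0.935) for Sema3a, and Myh10 (0.917) and Vps8 (0.916) for Nrp2. They were Chd4 (0.913) and Lrrc58 (0.91) for Robo1, Scaper (0.905) and Zfp160 (0.902) for Slit2, Fnbp4 (0.894) and Smcr8 (0.893) for Nrp1, and Tapbp (0.86) and Cpt1c (0.827) for Slit1. Lower values were found for Plxna1 with Unc13a (0.834) and Sv2c (0.819), Sema3f with Znrf1 (0.835) and Kremen1 (0.799), and Slit3 with Itga10 (0.742) and Cad (0.725). Within single tissues r could differ from the value over all libraries. For Nrp2 with Vps8 it was 0.989 in the MOE, 0.493 in the VNO and 0.939 in the OB.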

How the data were processed

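Total RNA of MOE, VNO and OB was depleted of ribosomal RNA and sequenced as stranded pairs by the authors. They aligned pairs with TopHat2 (2.1.0) and computed FPKM with Cufflinks (2.2.1.0), as their processing notes give, and the deposited FPKM tables, 1 per library with confidence limits, list RefSeq transcripts with mm9 loci. Options were not given in the sources used here. FPKM was not rescaled.

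Accessions were matched to symbols with a GRCm38.p6 RefSeq table, and with GENCODE metadata where that table lacked them, for 99.7% of entries. FPKM was summed by gene, leaving out 7 genes with an entry not marked as successful. Transcript starts within Robo2 and 3′ ends within Nrp2 were grouped by their mm9 ends. Fragments were estimated from the upper confidence limit, taken to lie 2 standard errors above FPKM. Such estimates do not cover the spread between pools. For genes with several transcripts they also rest on the program's split of fragments between transcripts. The reads carried no molecular identifiers and cannot be taken as separate molecules.

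Tissues were compared with limma 3.58.1 (R 4.3.3; lmFit, eBayes with trend) on log2(FPKM + 0.5), in 1 fit of 36 libraries and 12 group means, for the 14635 genes whose mean FPKM was 0.5 or more. Sex and housing were compared in 1 fit per tissue of 12 libraries. The sources do not say which pools of different tissues hold the same mice, and residuals of same-numbered libraries correlated above 0.1 in all 3 pairs only for SF and SM of the VNO (r = 0.13, 0.158 and 0.234), for which a fit with the pairs as a block was added after seeing the data. P-values were adjusted by Benjamini-Hochberg over all genes tested, and the scripts were tested on simulated data. Of 200 genes changed by a log2 value of 0.5, 0% were recovered for SF against SM of the MOE and 93% for MOE against OB. At a log2 value of 1 the shares were 67% and 98.5%. Tables were made with Python 3.11.15, numpy 2.4.6 and pandas 2.3.3, and figures with matplotlib 3.10.9.

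All 10 genes were named. Of the other lists, the rule named the 3 highest and 3 lowest genes per tissue comparison among those called without overlap, and per guidance gene the 2 with the highest residual r. Plxna2 and Plxna3 were named beside Plxna1 outside this rule. The genes and lists were chosen with earlier results of these data known. Alternatives were pseudocounts of 0.1 and 1, no filter, quantile normalization, upper quartile scaling, library weights, a replicate block, only the libraries compared, only transcripts listed in all tables, and each library left out in turn.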

Additional observations from a re-analysis of the deposited data

How the results depend on the processing

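Of 2530 values recomputed under alternatives for 63 results, 2499 were classed as kept, and 31 values of 10 results were not. A log2 difference was kept when its direction and its side of the threshold stayed. A count was kept when it equalled or stayed near the main count, so smaller shifts of counts are among those kept. The count of guidance genes at a log2 difference of at least 1 for VNO against OB, 6 in the main fit, ran from 5 to 8. The number of guidance genes that passed was 9 to 10 for MOE against OB, 10 for VNO against OB and 7 to 8 for MOE against VNO when each library was left out in turn, and 0 in every sex or housing comparison. Without MOE library CM3 the counts were 9, 10 and 7. Upper quartile scaling moved the median log2 difference of all genes from 0.15 to -0.05 for MOE against VNO and from -0.12 to 0.15 for VNO against OB. The MOE-VNO difference turned to -0.18 for Nrp1 (adjusted p = 0.0082, limma) and -0.18 for Robo1 (adjusted p = 0.00024) with this scaling, and to -0.20 and -0.094 with quantile normalization (adjusted p = 0.0032 and 0.0348). The count of genes at a log2 difference of at least 1 for MOE against VNO became 4 and 3, respectively. With library weights, from 0.0504 for MOE library CM3 to 6.17, 1 guidance gene passed in the MOE interaction (Sema3a, 0.38, adjusted p = 0.0474, limma), 1 in SF against SM of the OB (Slit1, -0.35, adjusted p = 0.0275) and 1 in the OB interaction (Slit1, -0.59, adjusted p = 0.0407). All-gene counts then rose from 4 to 2414, from 5 to 1381 and from 1 to 405, in SF against SM of the MOE from 13 to 1777, in CF against CM from 6 to 12 (MOE) and from 6 to 666 (OB), and by housing from 14 to 46 (MOE) and from 1 to 114 (OB). MOE housing called 24 genes with quantile normalization, 25 with upper quartile scaling and 6 with no filter, and the MOE interaction called 2 in each of these. With no filter SF against SM of the MOE called 8, the VNO interaction and housing 1 each and OB housing 0. With only the libraries compared, SF against SM called 20 (MOE) and 8 (OB), and CF against CM 11 (VNO, from 6) and 12 (OB). The cause was not tested. Library weights also raised Robo1 for MOE against VNO to 0.13 (adjusted p = 0.0084) and Sema3f for MOE against OB to 0.20 (adjusted p = 0.00066), which upper quartile scaling put at 0.21 (adjusted p = 0.0068). Slit1 for MOE against VNO lost its call with weights (-0.14), with only the libraries compared (-0.18), with quantile normalization (-0.11) and without MOE library CF3, CM3, SF2, SM1 or SM3 or VNO library CF1, CF3, CM1, CM2, SF3 or SM3 (-0.17 to -0.14, adjusted p = 0.0528 to 0.0771). Called genes of the other Robo pathway for MOE against OB went from 2 to 4 with weights, and of the netrin pathway for MOE against VNO from 7 to 4 with only the libraries compared.

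Residuals of same-numbered pools correlated with a median r of 0.01 across tissues (6 of 36 pairs over 0.1) and 0.03 across sexes (5 of 18, of which 3 are SF with SM of the VNO). For SF against SM of the VNO the block on those 6 libraries called 9 genes, beside 10 without it, and 0 guidance genes. With the replicate block, Slit1 for MOE against VNO had a log2 difference of -0.18 and an adjusted p of 0.057 by limma, and no other guidance gene changed its call. Low levels limit Slit3 in the MOE, at 36 estimated fragments in the lowest library, and the Nrp2 3′ ends in the OB.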

Other observations

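Sema3f was listed with a pair of transcripts that begin at different starts. The share of the downstream start was 0 to 100% in the MOE, 23.0 to 73.2% in the VNO and 0 to 100% in the OB, on at most 110 estimated fragments per library. The share thus spread over the whole range between libraries of a tissue, and no order of the tissues was read from it.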
